A study of Mus musculus with 8 samples.

Results

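The SLC22 family of solute carriers moves organic anions, organic cations and zwitterions such as carnitine across cell membranes. In the kidney its members sit mainly in the proximal tubule, where they take drugs, toxins, urate and metabolites out of the blood or the tubular fluid. Organic anion transporters of the basolateral membrane exchange their substrate for a dicarboxylate from inside the cell, organic cation transporters follow the membrane potential, and efflux carriers of the apical membrane then pass the substrate on into the urine.

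The 9 genes described here are the SLC22 genes Slc22a6, Slc22a8, Slc22a7, Slc22a12 and Slc22a13, which encode anion transporters, Slc22a2, Slc22a4 and Slc22a5, which encode cation and carnitine transporters, and Slc22a18, whose substrate is not settled. They were taken by gene symbol from a table of 35275 genes, and all 9 were found. RNA sequencing was done on renal cortex of 8 mice at postnatal day 7, with 1 library per mouse. The mutants Mut1393, Mut1453, Mut1454 and Mut1819 belonged to a Six2-Tfam knockout line, and the controls Con1391, Con1452, Con1822 and Con1823 were Cre-negative. TFAM, the product of Tfam, binds mitochondrial DNA and is needed to transcribe and copy it. Six2 is active in nephron progenitors, and a Cre driven by it therefore acts in the nephron epithelium they form, the proximal tubule included, but not in vessels, immune cells or the collecting duct. The labels name no further allele, and Cre-positive mice with intact Tfam were not analysed here.

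Total counts ranged from 15597762 to 20417550 per mouse. Levels are given as CPM, counts per 1e6 of a library's size. That size is its total over the genes that passed the filter, multiplied by its TMM normalization factor. Tfam, the targeted gene, stood at 27.0 ± 0.465 CPM in mutants, against 53.1 ± 2.96 CPM in controls (SD, n = 4 each). The groups also differed by sex-linked transcripts. Counts over 4 Y-linked genes were 4915, 4294 and 4862 in Mut1393, Mut1453 and Mut1454, 27 in Mut1819, and 0 to 3 in the controls, and Xist followed the opposite pattern. Among mice with many Y-linked counts there was no control, so genotype and these 3 mice's sex can be told apart only through Mut1819, whose values are given for each of the 9 transporters. A fit of Mut1819 alone has 1 mutant, so its spread comes from the controls and Mut1819 is assumed to vary like them. With a term for sex the difference likewise rests on Mut1819 against the controls. All 20 proximal tubule markers, none of them an SLC22 gene and none at 0, were lower in mutants, with a median log2 fold change of -2.31. Their summed level was 1566 to 2851 CPM in mutants, against 9203 to 13810 CPM in controls. Over all genes tested, 22.7% were lower and 23.5% higher in mutants. Markers of several other cell types were lower too. Among those of the distal convoluted tubule, Pvalb passed the filter on low counts only through the controls, which fixed its direction. The other 4 were lower, with a median log2 fold change of -2.05. The list with Pvalb summed to 192.8 to 381.1 CPM in mutants and 1117 to 1308 CPM in controls. Of the loop of Henle markers 4 of 5 were lower (1178 to 1495 CPM in mutants, 2300 to 2734 CPM in controls), of the podocyte markers 4 of 5 (929.3 to 1170 CPM in mutants, 1431 to 1594 CPM in controls), of the endothelial markers 5 of 5 (588.6 to 661.6 CPM in mutants, 753.4 to 877.6 CPM in controls) and of the collecting duct markers 5 of 6, whose summed levels overlapped. Of the stromal markers 1 of 5 was lower, near the share over all genes, and of the nephron progenitor markers 2 were lower and 2 higher. In such bulk libraries fewer cells of a type and less RNA per cell cannot be told apart. Of the macrophage markers, 5 of 5 were higher, with summed levels of 179.6 to 217.8 CPM in mutants and 106.6 to 126.8 CPM in controls, and the part of these lists in the results was not tested. The hepatocyte genes Alb and Apoa1, which mark a tissue that also holds SLC22 transporters, were near 0 in both groups, at a mean of 0.128 CPM in mutants and 0.305 CPM in controls for Alb. The whole hepatocyte list of 5 genes summed to 39.65 to 81.18 CPM in mutants and 115.4 to 219.8 CPM in controls, nearly all of it Ttr and Serpina1a.

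All 9 transporter mRNAs were lower in mutants by edgeR's quasi-likelihood test at an adjusted p of 0.05, and for each of them all 4 mutants lay below all 4 controls. Slc22a7 passed the filter on low counts only through the controls, so it had to differ in this direction and is left out of the count. The other 8 reached the filter in all 8 libraries, and 8 of these 8 were lower. The background was high. Of 15028 genes tested, 22.7% were lower and 23.5% higher in mutants, and 20.8% had all mutants below all controls. Among the 13929 genes that reached the filter in every library, 23% were lower and 21% had all mutants below all controls. By size, the 8 transporters each fell by more than 1 log2 unit, as did 5.04% of those 13929 genes. With Mut1819 alone against the 4 controls, where 12.7% of all genes tested were lower, and with a term for sex, where 13.8% were, the 8 were lower as well. Per list, the median log2 fold change was -2.57 for the 4 anion transporters other than Slc22a7 and -1.54 for the 3 cation and carnitine transporters, against -0.0008 over all genes tested.

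**Figure D1:**
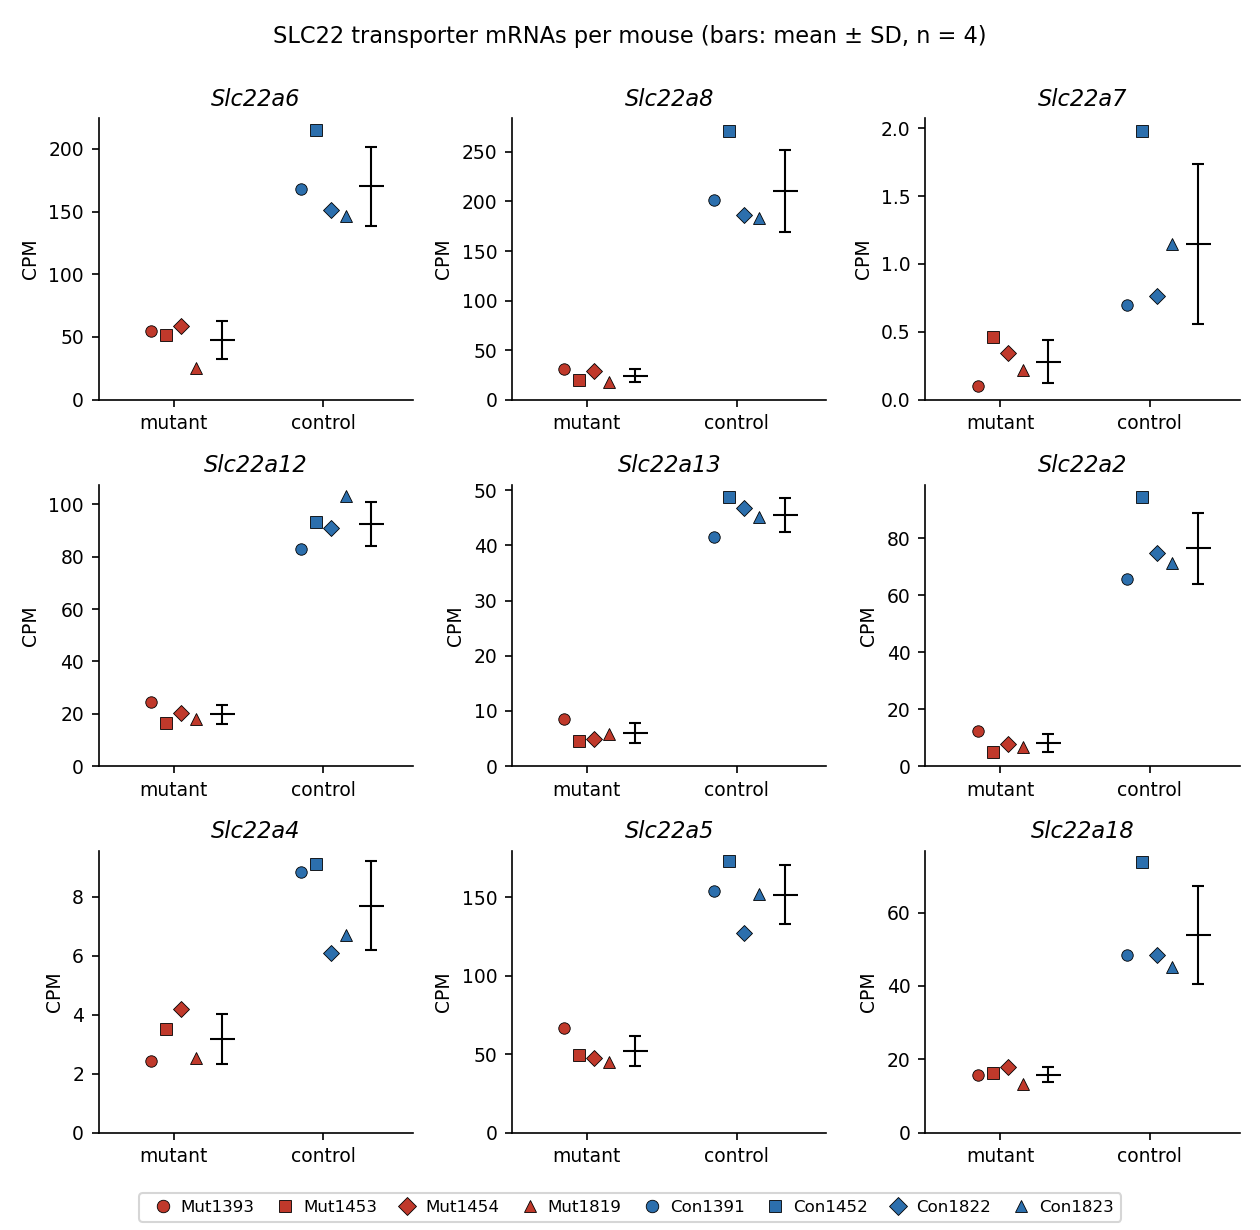
Level of each of the 9 transporter mRNAs in CPM (linear axes from 0) in every mouse, mutants in red on the left and controls in blue on the right, with the mean and SD of 4 mice beside them. In each panel the highest mutant lies below the lowest control, and Con1452 is the highest control in 8 of the 9.

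Slc22a6 and Slc22a8 encode OAT1 and OAT3, the basolateral transporters that carry most organic anions, from p-aminohippurate to many diuretics and antibiotics, into proximal tubule cells. Both lie on chromosome 19 on the plus strand, Slc22a8 at 8591254 to 8611835 and Slc22a6 at 8618039 to 8628299 (mm10), with a gap of 6203 bases and no protein-coding gene between. The 250 bases before their RefSeq start sites (GRCm38.p6) are shown because these neighbours fell by different amounts. The Slc22a8 window is chr19:8592932-8593181 and the Slc22a6 window chr19:8617746-8617995, both on the plus strand and printed 5′ to 3′. The Slc22a8 window lies inside the GENCODE span of the gene, which begins at an earlier start site. The orientation of the Slc22a8 window was matched to a GENCODE transcript, and that of Slc22a6 was taken from the RefSeq table without such a match.
Slc22a8: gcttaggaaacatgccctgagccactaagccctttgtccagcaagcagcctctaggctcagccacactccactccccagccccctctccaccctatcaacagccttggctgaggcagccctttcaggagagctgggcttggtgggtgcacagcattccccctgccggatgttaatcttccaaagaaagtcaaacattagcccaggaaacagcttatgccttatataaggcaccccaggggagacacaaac
Slc22a6: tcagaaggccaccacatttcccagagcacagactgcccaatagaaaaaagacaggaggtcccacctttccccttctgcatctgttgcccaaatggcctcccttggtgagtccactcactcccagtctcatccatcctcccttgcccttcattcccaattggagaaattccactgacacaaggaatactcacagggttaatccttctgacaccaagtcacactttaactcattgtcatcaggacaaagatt
The HNF4-type motif CAAAGTCCA was searched on both strands and occurred in 0.384% of 32851 RefSeq windows of this length. Of the 9 genes, 8 had a window, all but Slc22a7, and none of the 8 held these letters. A match is so rare that finding none in 8 windows was likely beforehand. Other spellings of the motif and bases outside the windows were not searched, so no conclusion on HNF4 sites is drawn.

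Slc22a8 stood at 30.85, 20.19, 28.70 and 17.49 CPM in Mut1393, Mut1453, Mut1454 and Mut1819, against 201.6, 271.4, 186.5 and 183.6 CPM in Con1391, Con1452, Con1822 and Con1823. The highest mutant was far below the lowest control. The log2 fold change was -3.11 (SE 0.181, adjusted p = 1.086e-07 by edgeR), which left 11.5% of the control mean. Slc22a6 stood at 54.93, 51.61, 59.10 and 25.39 CPM in the mutants in the same order, against 168.0, 215.0, 150.9 and 146.4 CPM in the controls. Mut1819, the mutant with few Y-linked counts, was set apart at the low end. The log2 fold change was -1.83 (SE 0.213, adjusted p = 2.398e-05 by edgeR), and the mutant mean was 28.1% of the control mean. With Mut1819 alone against the 4 controls, the log2 fold change of Slc22a6 was -2.74 and that of Slc22a8 was -3.59.

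Within each library, the balance of this neighbouring pair shifted. The log2 ratio of Slc22a8 over Slc22a6 counts was -0.83, -1.35, -1.04 and -0.54 in the mutants and 0.26, 0.34, 0.31 and 0.33 in the controls. Slc22a8 was thus the more counted of the pair in every control and the less counted in every mutant. The mean ratio was -0.94 ± 0.344 in mutants and 0.31 ± 0.0324 in controls (SD, n = 4 each), a difference of -1.25 log2 units. The two-sided exact permutation test over 70 assignments gave p = 0.02857, the smallest it can give, and 0.04286 after Benjamini-Hochberg adjustment over 3 pairs. In Mut1819 the ratio was the nearest to the controls. With each mouse left out in turn, the difference ranged from -1.38 to -1.11, and no p-value was computed for these. With fewer mice the test has fewer assignments and its smallest p-value is larger, so the call was not checked this way.

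Slc22a7 encodes OAT2, an anion transporter of liver and kidney. At postnatal day 7 it was barely counted. It had 2, 8, 7 and 4 counts in the mutants and 11, 33, 12 and 19 counts in the controls, or 0.0975 to 0.463 CPM in mutants and 0.694 to 1.98 CPM in controls. The fitted log2 fold change was -2.04 (SE 0.472, adjusted p = 0.003832 by edgeR), and with Mut1819 alone, a mouse with 4 counts, it was -2.35 (adjusted p = 0.08061 by edgeR, with the spread of the controls).

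Slc22a12 and Slc22a13 encode apical exchangers of organic anions. URAT1, the product of Slc22a12, takes urate back from the tubular fluid, and OAT10, the product of Slc22a13, exchanges nicotinate and urate in human and rat studies. Slc22a12 stood at 24.56, 16.43, 20.12 and 17.93 CPM in the mutants, against 82.78, 93.07, 90.78 and 103.2 CPM in the controls. The groups were far apart and neither held a stray mouse, and the log2 fold change was -2.22 (SE 0.113, adjusted p = 4.165e-08 by edgeR). Slc22a13 stood at 8.63, 4.51, 4.87 and 5.87 CPM in the mutants, against 41.45, 48.79, 46.69 and 45.07 CPM in the controls. Its log2 fold change was -2.92 (SE 0.157, adjusted p = 6.212e-08 by edgeR), and both genes changed little with Mut1819 alone, at -2.37 for Slc22a12 and -2.96 for Slc22a13.

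Slc22a13 fell further than Slc22a12 in each mutant when the pair was set against its ratio in the controls. The log2 ratio of Slc22a12 over Slc22a13 counts was 1.51, 1.86, 2.04 and 1.61 in the mutants, against 0.997, 0.931, 0.959 and 1.195 in the controls, without overlap. The difference of the means was 0.73 log2 units (two-sided exact permutation p = 0.02857, adjusted 0.04286). Some sequence is shared with other genes. Of the Slc22a12 transcripts 30.6% of bases match Nrxn2, which lies on the opposite strand and had 891 counts over all 8 mice, and strand use in counting is not stated. Of the Slc22a13 transcripts 34.0% match the pseudogene Slc22a13b-ps, which had 41 counts.

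**Figure D2:**
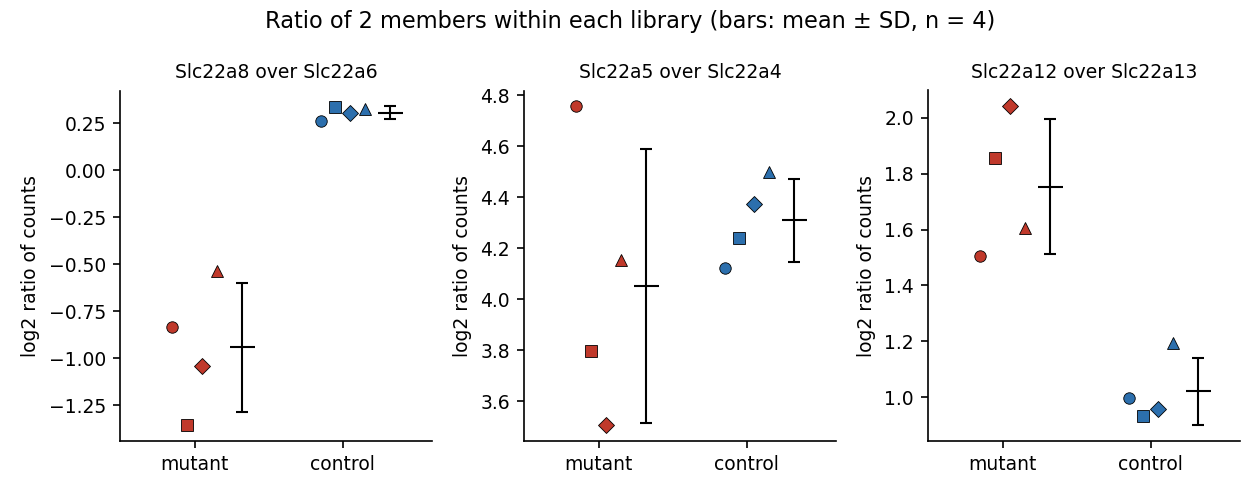
Log2 ratio of the counts of 2 transporters in each library, for Slc22a8 over Slc22a6, Slc22a5 over Slc22a4 and Slc22a12 over Slc22a13, mutants in red on the left and controls in blue on the right, with symbols per mouse as in the plot of transporter levels and the mean and SD beside them. The outer panels show groups that do not overlap, at means of -0.94 and 0.31 and of 1.75 and 1.02 in mutants and controls, while in the middle panel the mutants spread around the controls.

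Slc22a2 encodes OCT2, the basolateral entry step for metformin, creatinine and other organic cations. It fell the most of the 9 genes by its log2 fold change, although its neighbours in that order, Slc22a8 and Slc22a13, had intervals that overlapped with its own. It stood at 12.48, 5.03, 7.89 and 6.64 CPM in the mutants, against 65.62, 94.27, 74.64 and 71.23 CPM in the controls. The log2 fold change was -3.24 (SE 0.21, adjusted p = 2.305e-07 by edgeR), with an approximate 95% interval of -3.65 to -2.83. The mutant mean was 10.5% of the control mean. With Mut1819 alone against the controls it was -3.53. Slc22a2 lies on chromosome 17 at 12584132 to 12628488.

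Slc22a5 and Slc22a4 share a locus on the minus strand of chromosome 11, with Slc22a21 between them. Slc22a5 encodes OCTN2, the sodium-coupled carrier that reclaims carnitine from the tubular fluid, and Slc22a4 encodes OCTN1, which carries ergothioneine. Their log2 fold changes were the smallest of the 9, although their approximate 95% intervals overlapped with those of other members. These were -1.775 to -1.30 for Slc22a5 and -1.68 to -0.872 for Slc22a4. Both overlapped with those of Slc22a18, -2.07 to -1.47, Slc22a6, -2.25 to -1.41, and Slc22a7, -2.96 to -1.11. Slc22a5 stood at 66.53, 49.41, 47.90 and 45.30 CPM in the mutants, against 154.4, 173.1, 127.2 and 152.4 CPM in the controls, and its log2 fold change was -1.54 (SE 0.122, adjusted p = 1.127e-06 by edgeR). Slc22a4 stood at 2.44, 3.53, 4.19 and 2.52 CPM in the mutants, against 8.83, 9.12, 6.10 and 6.71 CPM in the controls. The gap between its groups was narrow, and its log2 fold change was -1.28 (SE 0.206, adjusted p = 0.000317 by edgeR). With Mut1819 alone the log2 fold change was -1.745 for Slc22a5 and -1.61 for Slc22a4.

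The log2 ratio of Slc22a5 over Slc22a4 counts was 4.76, 3.80, 3.51 and 4.15 in the mutants and 4.12, 4.24, 4.38 and 4.50 in the controls. Mut1393 lay above all controls and Mut1453 and Mut1454 below them. The difference of -0.26 log2 units was not past the threshold (two-sided exact permutation p = 0.4, also after adjustment). Of the Slc22a5 transcripts, 31.8% of bases match Slc22a21, so reads could be split between these genes. Slc22a21 itself did not pass the test, at 5.30 ± 0.739 CPM in mutants and 4.72 ± 0.131 CPM in controls (SD, n = 4 each).

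Slc22a18 is an imprinted gene on chromosome 7 whose product differs in sequence from the rest of the family. It stood at 15.60, 16.37, 17.98 and 13.33 CPM in the mutants, against 48.33, 73.75, 48.34 and 45.07 CPM in the controls. Con1452 was far above the other controls, which lay close together. The log2 fold change was -1.77 (SE 0.153, adjusted p = 2.192e-06 by edgeR), -1.57 without Con1452 and -2.02 with Mut1819 alone.

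Levels per gene length, in the FPKM values deposited by the authors, give the order of the transporters. Slc22a5 was the most abundant in both groups, at 34.5 ± 6.39 FPKM in mutants and 94.9 ± 8.76 FPKM in controls (SD, n = 4 each). In mutants Slc22a18, Slc22a12, Slc22a6, Slc22a8, Slc22a2, Slc22a13 and Slc22a4 followed, at means of 14.9, 14.4, 12.1, 7.24, 3.88, 3.10 and 2.77 FPKM, and each overlapped with its neighbour in this order. In controls the order was Slc22a12, Slc22a8, Slc22a18, Slc22a6 and Slc22a2, at means of 63.9, 59.4, 47.9, 41.0 and 35.1 FPKM, neighbours again overlapping. Slc22a13 at 22.4 FPKM and Slc22a4 at 6.38 FPKM then stood apart from their neighbours in controls. Slc22a7 was the lowest in both groups, at 0.143 ± 0.0789 FPKM in mutants and 0.549 ± 0.261 FPKM in controls.

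The 9 transporters summed to 93.0 ± 14.9 FPKM in mutants and 371.3 ± 34.1 FPKM in controls. Their make-up differed. Slc22a5 made up 37.1% ± 3.16 of the sum in mutants and 25.6% ± 1.84 in controls, without overlap between the groups. Slc22a8 made up 7.70% ± 0.967 in mutants and 15.9% ± 1.13 in controls, and Slc22a2 4.09% ± 1.06 in mutants and 9.43% ± 0.705 in controls, also without overlap. The share of Slc22a13 was likewise lower without overlap, at 3.32% in mutants and 6.05% in controls. The shares of Slc22a6, Slc22a7, Slc22a12, Slc22a4 and Slc22a18 overlapped.

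**Figure D3:**
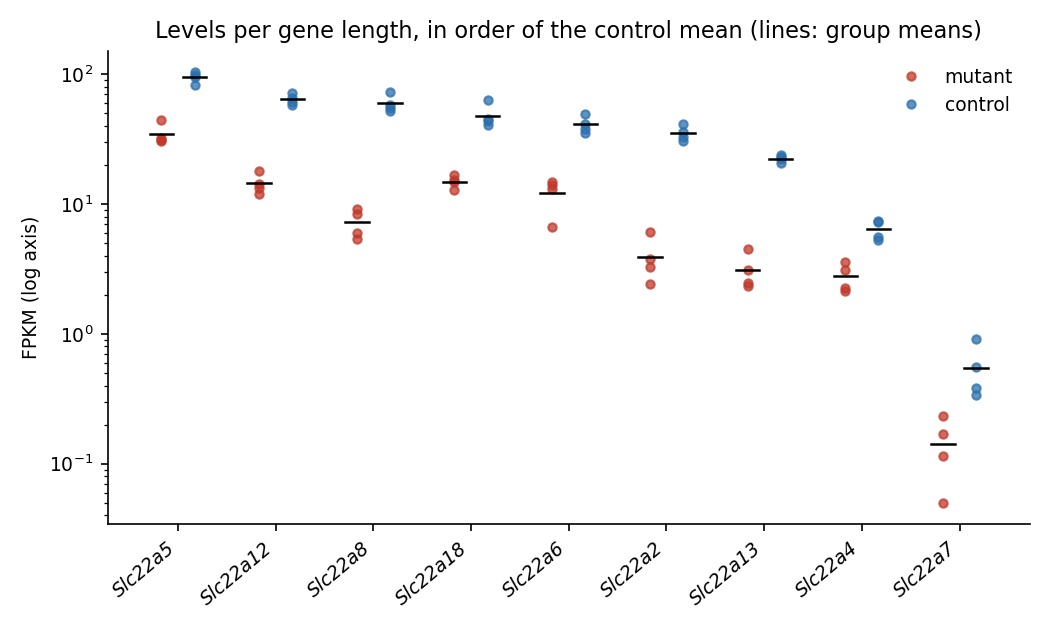
Level per gene length of the 9 transporters in the deposited FPKM values on a log axis, 1 point per mouse, mutants in red left of controls in blue, and a line at each group mean. Slc22a5 is at the top in both groups, at 34.5 FPKM in mutants and 94.9 FPKM in controls, and Slc22a8 has a higher mean than Slc22a6 in controls and a lower one in mutants.

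Since the markers of the whole proximal tubule were lower, the transporters were also tested with library sizes set by the geometric mean of the 20 markers. On this scale a value of 0 means a fall equal to that of the marker mean. The median of all genes moved to 2.57 log2 units, 0.472% of the 15028 genes were lower in mutants and 97.8% were higher. The markers themselves differed widely, with log2 fold changes from -4.27 to -1.21 in the main fit. Every transporter lay within that range, so the values below compare it with the marker mean and not with each marker. Slc22a2 was lower than the marker mean, by a log2 difference of -0.76 (adjusted p = 0.006265 by edgeR), and so was Slc22a8, at -0.57 (adjusted p = 0.03105 by edgeR). Slc22a13, at -0.42, and Slc22a12, at 0.30, were not past the threshold, nor was Slc22a7, at 0.57. Slc22a6, at 0.72, Slc22a18, at 0.84, Slc22a5, at 1.01, and Slc22a4, at 1.33, were higher than the marker mean. Their adjusted p-values were 0.006424, 0.002032, 0.0001323 and 4.286e-05 by edgeR, in this order. The calls of Slc22a5, Slc22a18 and Slc22a4 held under every alternative run. Those of Slc22a2 and Slc22a8 were lost with only the first 10 markers and with a sex term, that of Slc22a6 with a sex term, where it was 0.17, and without Mut1453 or Mut1454, at 0.58 and 0.59. The call of Slc22a8 was also lost without Mut1453, Mut1819, Con1391, Con1822 or Con1823, at -0.60 to -0.54, and Slc22a13 was past the threshold, at -0.71, with the median of the markers.

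Across mice, the mutant with the most proximal tubule marker RNA, Mut1393, was the highest mutant for 5 of the 9 transporters and the lowest for 2, Slc22a7 and Slc22a4, and Mut1819, with the least, was the lowest for 4 and the highest for none. Deviations from the group means were compared, as a description over 8 mice, for all pairs of the 9 transporters. The highest values were those of Slc22a13 and Slc22a2 (Pearson r = 0.8757), Slc22a12 and Slc22a2 (r = 0.8545), and Slc22a6 and Slc22a8 (r = 0.8317). The lowest was that of Slc22a4 and Slc22a13 (r = -0.6168). Other pairs lay between these, some near 0, such as Slc22a4 and Slc22a5 (r = 0.0395). Of 13258 genes compared over the 8 mice, the 3 most like Slc22a8 in log2 CPM were Ass1, Slc5a9 and Ddah1, at r of 0.9979, 0.9977 and 0.9974. The 3 most like Slc22a5 were Slc27a2, Hao2 and Bdh2, at r of 0.9983, 0.9982 and 0.9981, and those most like Slc22a6 were Slc16a11, Fam151b and Ngly1, at r of 0.9933, 0.9928 and 0.9921. Ass1 and Slc27a2 are on the list of proximal tubule markers, and all these correlations hold the difference between the groups. A high correlation does not mean a fall of like size. The log2 fold changes were -2.83, -2.59 and -0.81 for Ass1, Slc5a9 and Ddah1. They were -2.27, -2.09 and -1.35 for Slc27a2, Hao2 and Bdh2. For Slc16a11, Fam151b and Ngly1 they were -0.64, -0.59 and -0.30, against -1.83 for Slc22a6.

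In the rest of the family most tested genes were lower too. Of 16 other SLC22 genes, 12 were tested, 9 were lower and none was higher, with a median log2 fold change of -2.30. Over all genes tested 22.7% were lower. Of the 10 that reached the filter in all 8 libraries, 8 were lower, against 23% of all genes that did so.

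The rodent anion transporter genes next to Slc22a8 on chromosome 19 fell the most. Slc22a29 stood at 1.97 to 6.53 CPM in mutants and 52.60 to 85.57 CPM in controls, and Slc22a27 at 0.81 to 3.70 CPM in mutants and 25.74 to 32.40 CPM in controls. Their log2 fold changes were -4.01 and -3.95. Slc22a30, Slc22a19 and Slc22a28 followed at -3.51, -2.97 and -2.83. All transcript bases of Slc22a28 match Slc22a30, so these counts are uncertain as a split, and 15.4% of those of Slc22a27 match Slc22a29. Slc22a22, which among the mutants reached the filter in Mut1393 alone, had a log2 fold change of -2.60. Without that mouse it passed the filter only through the controls, which fixes the direction.

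Slc22a17 and Slc22a23, family members without a settled transport role in the tubule, fell less, by 0.81 and 0.78 on the log2 scale. Slc22a15, Slc22a21 and Slc22a3 were not past the threshold, at log2 fold changes of 0.24, 0.17 and -0.08. The direction of Slc22a3, an organic cation transporter counted at under 1 CPM in every mouse, turned with single mice left out. Slc22a15 was past the threshold and higher without Con1391, at 0.42 (adjusted p = 0.0237 by edgeR). Slc22a16 and Slc22a20 had 0 counts in all 8 mice, and Slc22a14 and Slc22a26 were under the filter.

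**Figure D4:**
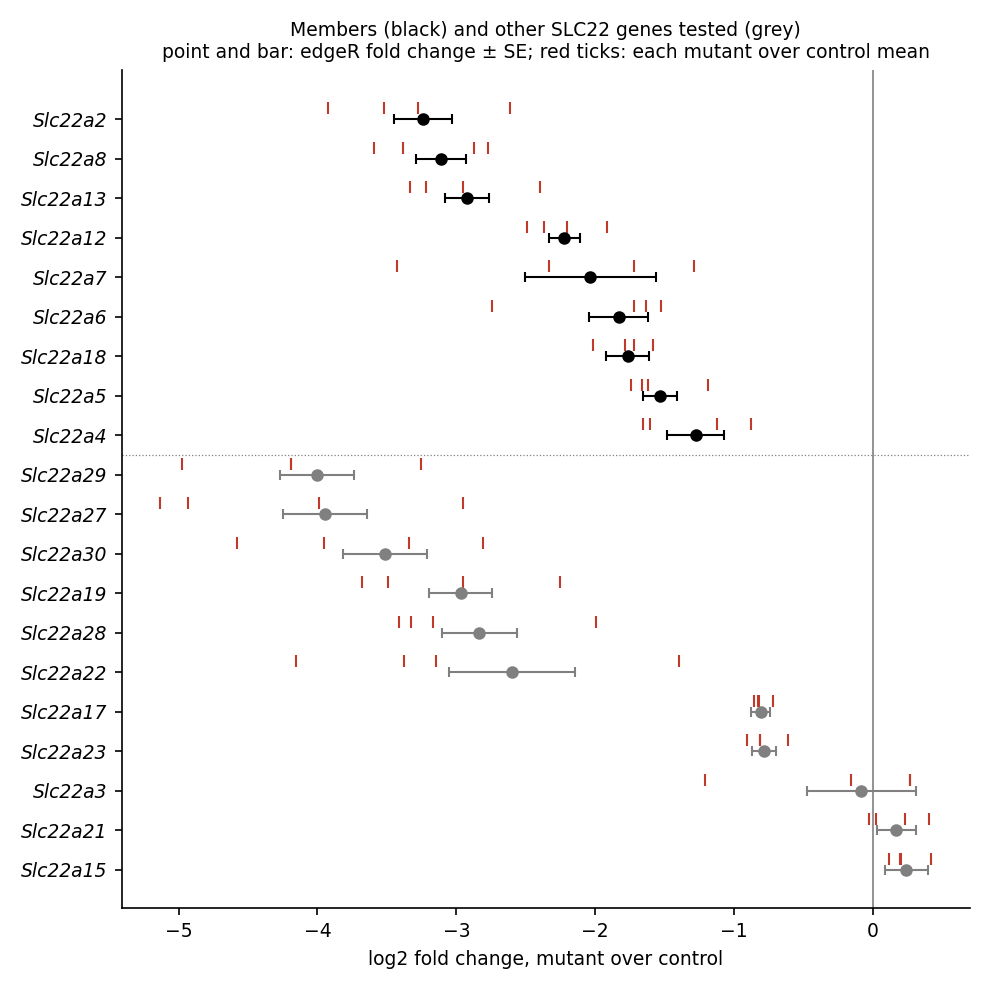
Log2 fold change, mutant over control, of the 9 transporters in black above and other tested SLC22 genes in grey below, with the SE as bars and a red tick for each mutant over the control mean. All 9 lie left of 0, from -3.24 for Slc22a2 to -1.28 for Slc22a4, and the others run from -4.01 for Slc22a29 to 0.24 for Slc22a15.

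The efflux carriers that pass SLC22 substrates on into the urine did not all fall. Of 9 tested, 5 were lower and 2 higher, with a median log2 fold change of -0.86. Over all genes tested 22.7% were lower and 23.5% higher, so the share of carriers that were higher was near that of all genes. Abcc4 encodes MRP4, an apical exporter of organic anions. It stood at 141.7, 160.3, 148.5 and 132.5 CPM in the mutants, against 34.13, 34.75, 35.76 and 37.22 CPM in the controls, and its log2 fold change was 2.04 (SE 0.0673, adjusted p = 2.614e-09 by edgeR). The lowest mutant was far above the highest control. Abcb1b, one of the mouse P-glycoprotein genes, was also higher, at 5.90, 6.71, 5.90 and 2.74 CPM in the mutants and 0.82, 1.86, 1.08 and 1.33 CPM in the controls. Its log2 fold change was 2.05, and with Mut1819 alone against the controls it was 1.10 (adjusted p = 0.1008 by edgeR, with the spread of the controls).

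Slc47a1, which encodes the apical proton exchanger MATE1 that works in series with OCT2, stood at 85.2 ± 7.18 CPM in mutants and 172.4 ± 23.6 CPM in controls, with a log2 difference of -1.02 (SE 0.094, adjusted p = 3.759e-06 by edgeR). Slc17a3, which encodes the voltage-driven urate exporter NPT4, fell by 2.20 on the log2 scale, and Abcg2, which encodes the urate exporter BCRP, had a log2 fold change of -1.496. Slc17a1, a neighbour of Slc17a3 in the family of phosphate and anion carriers, stood at 117.8 ± 20.1 CPM in mutants and 100.3 ± 15.99 CPM in controls and was not past the threshold.

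At the basolateral side, 5 of 6 partner genes were lower and none higher, with a median log2 fold change of -1.58. The shares over all genes tested were 22.7% lower and 23.5% higher. Slc13a3 encodes NaDC3, the sodium-coupled carrier that supplies the dicarboxylates OAT1 and OAT3 exchange. It stood at 20.13, 18.11, 23.97 and 14.15 CPM in the mutants, against 111.3, 164.0, 108.4 and 131.3 CPM in the controls, and its log2 fold change was -2.75 (SE 0.162, adjusted p = 1.214e-07 by edgeR). Slc2a9, which encodes the urate carrier GLUT9, fell by 2.01 on the log2 scale, Slc16a9 by 1.83 and Slco4c1 by 1.33.

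All 4 genes of apical scaffold proteins were lower, against 22.7% of all genes tested, with a median log2 fold change of -0.74. Pdzk1 encodes a scaffold that binds URAT1 in human and OCTN carriers in mouse at the apical membrane. It stood at 110.0, 74.46, 71.19 and 75.96 CPM in the mutants, against 336.5, 441.1, 317.2 and 339.2 CPM in the controls, and its log2 fold change was -2.11 (SE 0.145, adjusted p = 3.641e-07 by edgeR). Pdzk1ip1 fell by 0.93 on the log2 scale, and Slc9a3r1 and Slc9a3r2, which encode the NHERF scaffolds, by 0.54 and 0.32. The call of Slc9a3r2 was lost with a sex term, at -0.29 (adjusted p = 0.06383 by edgeR).

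Of 8 genes of transcription factors known for tubular transporter genes, 7 were lower and none higher, with a median log2 fold change of -0.79. Among all genes tested 22.7% were lower and 23.5% higher. Hnf4a, which encodes a nuclear receptor of the proximal tubule, stood at 215.5, 184.5, 192.5 and 152.3 CPM in the mutants and 412.8, 548.9, 402.7 and 474.8 CPM in the controls. Its log2 fold change was -1.30 (SE 0.118, adjusted p = 3.12e-06 by edgeR). Ppara fell by 1.18 and Hnf4g by 0.84 on the log2 scale.

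Of 6 tested genes that make or use carnitine, 4 were lower and none higher, with a median log2 fold change of -0.36. For this list and the urate genes below, the shares over all genes tested were 22.7% lower and 23.5% higher. Aldh9a1, an enzyme of carnitine synthesis, fell by 0.64 on the log2 scale, and Cpt2, Slc25a20 and Crat, which handle acylcarnitines in mitochondria, by 0.60, 0.39 and 0.33. Bbox1, the last enzyme of carnitine synthesis, was under the filter, at 0.135 ± 0.0948 CPM in mutants and 0.616 ± 0.248 CPM in controls, without overlap between the groups. Cpt1a stood at 394.5 ± 34.6 CPM in mutants and 436.5 ± 16.99 CPM in controls and was not past the threshold. Of 3 tested genes that make or degrade urate and its precursors, Hprt, the purine salvage enzyme, was higher, at 116.9 ± 11.8 CPM in mutants and 80.2 ± 1.80 CPM in controls (log2 fold change 0.54, adjusted p = 5.617e-05 by edgeR). Xdh and Pnp were not past the threshold.

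**Figure D5:**
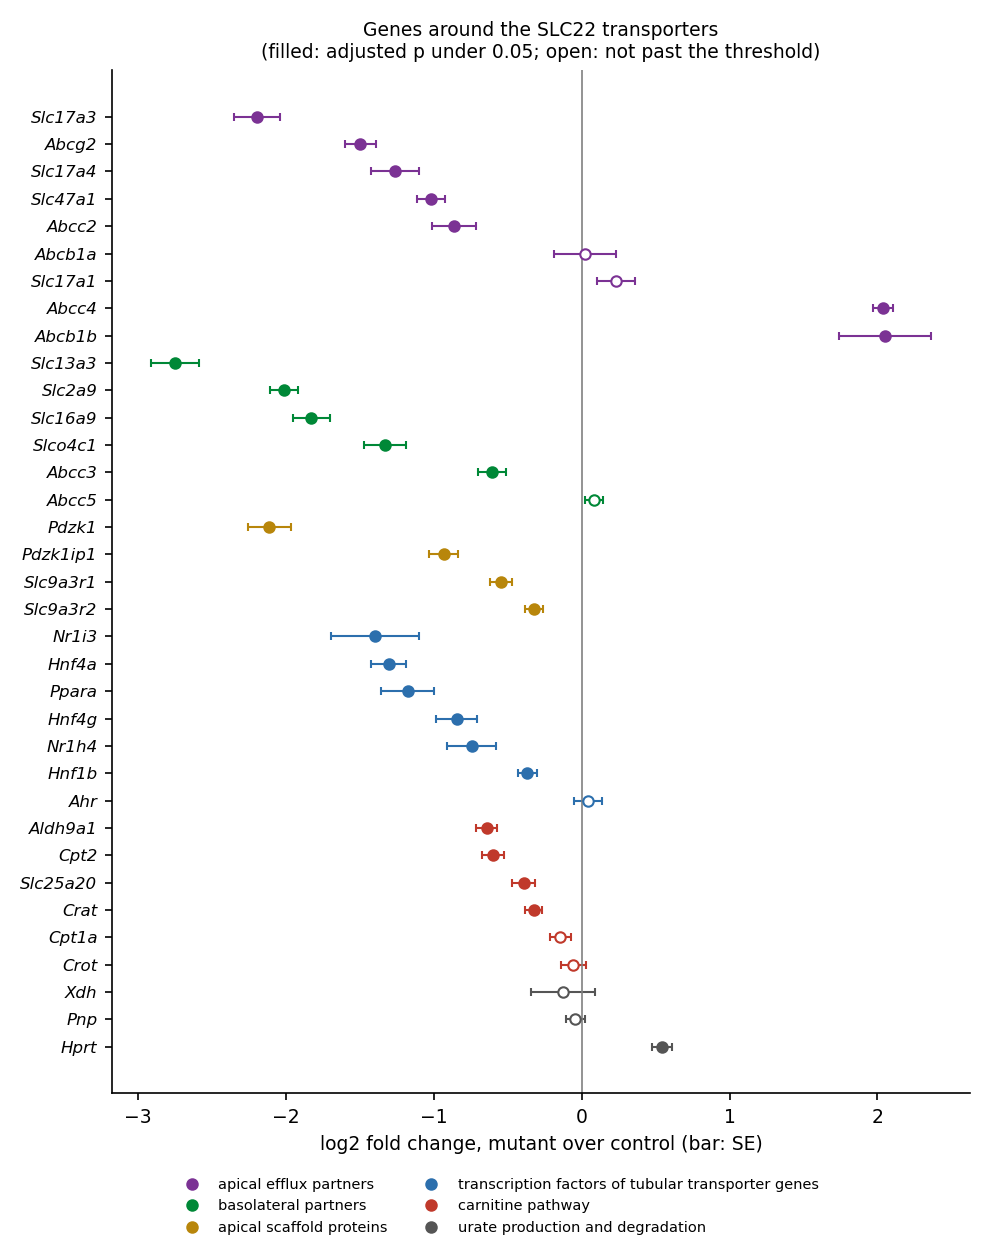
Log2 fold change, mutant over control, with its SE, of genes that work beside the SLC22 transporters, coloured by list, filled where the adjusted p was under 0.05 and open where it was not. Most filled points lie left of 0, down to -2.75 for Slc13a3, and Abcc4 at 2.04, Abcb1b at 2.05 and Hprt at 0.54 lie to the right.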

How the data were processed

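Read counts and FPKM values per gene and mouse were deposited by the authors, per the file headers, in 1 table with the authors' mean signal per group, their log2 fold change and their p-values, which were not used for any result. Bowtie2, TopHat2, HTSeq and DESeq2 and the build mm10 are named in the submitters' processing notes, and versions, strand use and annotation are not stated there. Groups came from the mouse titles and lines, and since nothing says how the mice relate, p-values measure the spread between these 8 mice. Symbols gave 9 of 9 transporters and 138 of 139 list genes (not Tmlhe), and positions came from GENCODE M21. The main test on the counts of all genes was that of edgeR 4.0.16, run in R 4.3.3 (filterByExpr, which kept genes of at least 0.582 CPM in 4 libraries, TMM, quasi-likelihood test, Benjamini-Hochberg adjustment over 15028 genes, threshold 0.05). CPM levels were computed from totals over the filtered genes multiplied by the TMM factors, and the CPM of the filters from total counts. A second fit replaced TMM by the geometric mean of 20 proximal tubule markers. Log2 ratios of pairs used counts plus 0.5. DESeq2 1.42.0, limma-voom 3.58.1, median-ratio size factors, totals without mitochondrial counts, dropping the filter or raising it to 10 CPM, terms for mouse number range and sex, Mut1819 alone, and each mouse left out were the alternatives. Transcript bases shared at 98% identity or more were found with BLAST 2.17.0. The sex term used Y-linked counts of at least 1000. The plain fit of mutants against controls by edgeR, limma-voom and DESeq2 was run on simulated data. The other fits and the permutation test were not. Figures were drawn with matplotlib 3.10.9.

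The members and gene lists were chosen with earlier results of these data known. Named were the 9 transporters, the other SLC22 genes that passed the filter, and from each further list up to 4 genes with the smallest adjusted p and those that moved against the list's majority. Tfam, sex-linked genes and, for Slc22a6, Slc22a8 and Slc22a5, the 3 genes with the highest correlation at a mean log2 CPM of at least 1 were also named. Slc17a1, Bbox1, Cpt1a, Xdh, Pnp, Alb, Apoa1 and the SLC22 genes under the filter were chosen after their values were seen. Some genes that this rule takes are not reported here.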

Additional observations from a re-analysis of the deposited data

Results flagged for a closer look

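In 96 sets of 4 mice, 4 had a highest or lowest mouse whose gap to its nearest neighbour, divided by the range of the 4, was above Dixon's critical value, and chance gives about 1 in 20. Slc22a18 was 73.75 CPM in Con1452, above the other 3 controls. Slc22a28 was 2.486 CPM in Mut1393, and Pdzk1 was 110.0 CPM in Mut1393, each above the other 3 mutants. Tfam was 48.66 CPM in Con1822, below the other 3 controls.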

How the results depend on the processing

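Of 1215 recomputed values, 1191 kept their direction and their side of the threshold, or stayed within the spread or 1.5 times of a count. These include the FPKM levels and the pair ratios with each mouse left out, which were judged by the spread. Leaving out a mouse always moves a group mean by less than the group SD, so these values could not come out otherwise. They say nothing on stability, and the count of 1191 is raised by them. No paired analysis was run because nothing states litters or pairs. A term for mouse number range, where each range held mice of both groups, was among the alternatives. In the fit over all genes, the 8 transporters other than Slc22a7 stayed lower under every alternative that gave a value. Slc22a4 and Slc22a7 gave none at 10 CPM. Slc22a7 was not past the threshold with a sex term, at -2.356, or with Mut1819 alone, at -2.353, both of which rest on 1 mutant. Slc22a3 ranged from -0.304 to 0.148 over the mice left out, and turned to 0.148 without Mut1819, 0.0492 without Con1391 and 0.0712 without Con1823. The count of other SLC22 genes that were higher was 0 to 1 over the mice left out, and 1 without Con1391. Relative to the proximal tubule markers, a sex term gave 0.171 for Slc22a6, -0.674 for Slc22a8 and -0.621 for Slc22a2, none past the threshold. The first 10 markers gave -0.332 for Slc22a8 and -0.531 for Slc22a2, neither past it. The median of the markers gave -0.00255 for Slc22a12, a turn of direction, and -0.707 for Slc22a13, now past the threshold. With each mouse left out, Slc22a6 ranged from 0.582 to 0.864 and lost its call without Mut1453 or Mut1454. Slc22a8 ranged from -0.673 to -0.513 and lost its call in 5 of 8 cases. The cause was not tested. Counts of 2 to 33 limit Slc22a7.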
